A study of Mus musculus with 6 samples.

Results

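The genes described here were the 40 cytosolic chaperone and heat shock genes of a list that names the subunits of the chaperonin TRiC, the subunits of prefoldin, the cytosolic HSP70, HSP110 and HSP90 proteins, J proteins, co-chaperones and the transcription factor *Hsf1*. The list was given by gene symbol and used no measured value. All 40 were among the 24499 genes of the deposited table, and all 40 passed the filter on low counts. They were measured by poly(A) RNA-seq at day 3 in induced germinal center B cells (iGCBs) of 3 cKO and 3 control mice. Such cells were grown from naive splenic B cells on irradiated 40LB cells, a feeder line made from BALB/c 3T3 cells to present CD40L and BAFF, and were given 1 ng/ml of IL-4. The irradiation dose was 120 Gy. The ages of the mice are not given in the sources used here. The cKO mice were *Eif3e* fl/fl Cγ1Cre Rosa26-YFP LSL, and the control mice carried Cγ1Cre and Rosa26-YFP LSL without the floxed *Eif3e* alleles, so both groups expressed Cre and were sorted for YFP. Cγ1Cre is switched on when activated B cells transcribe the γ1 constant region, and YFP marks cells in which Cre has acted. The comparison asked which chaperone mRNAs differed after loss of eIF3e, a subunit of the translation initiation factor eIF3.

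Cytosolic chaperones bind proteins that are not yet folded or have lost their fold. HSP70 proteins bind short hydrophobic stretches in a cycle of ATP hydrolysis that J proteins start and that HSP110 and BAG proteins complete by nucleotide exchange. HSP90 and its co-chaperones take over clients such as kinases and steroid receptors, while prefoldin hands actin and tubulin to TRiC, a ring of related subunits. *Hsf1* is the transcription factor that binds inverted repeats of the letters GAA, called heat shock elements, and raises many of these genes when unfolded proteins build up. Activated B cells, which grow and divide fast, use the same system during growth.

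The sequences around start sites were examined first, because heat shock elements are the sequence by which *Hsf1* target genes are usually recognised. RefSeq promoter windows on GRCm38.p6, from 250 bases before to 50 bases after a start site, were available for 32 of the 40 genes, in 42 windows. The genes with none were *Hsp90aa1*, *Hsp90ab1*, *Hspa8*, *Hsf1*, *Cct4*, *Dnajc2*, *St13* and *Pfdn1*. The element of 3 units was searched as GAANNTTCNNGAA on both strands. It was found for 3 of the 32 genes (9.38%), against 0.662% of the 27025 genes with a window, counted per gene. The 2-unit form GAANNTTC, which every match to the 3-unit form also contains, was found for 9 of the 32 genes (28.1%), against 9.04% of all genes. The other 2-unit form, TTCNNGAA, was found for 6 of the 32 (18.8%), against 9.6% of all genes. A match describes the letters in the window and does not show that a factor binds there.

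The 30-base stretches below hold a match of each of the 9 genes, the 3-unit match in capitals for *Hsph1*, *Chordc1* and *Dnajb6* and the 2-unit match in capitals for the others. Each is written 5′ to 3′ on the strand of its gene.
Hsph1 (chr5:149636279-149636308, minus strand): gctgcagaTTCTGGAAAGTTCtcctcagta
Chordc1 (chr9:18292255-18292284, plus strand): tgcaaccgGAACGTTCGGGAAaattcctga
Dnajb6 (chr5:29735844-29735873, plus strand): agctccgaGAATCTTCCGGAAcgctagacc
Hspa1a (chr17:34972239-34972268, minus strand): aactgctgGAAGATTCctggccccaaggcc
Hspa1b (chr17:34959321-34959350, minus strand): aactgctgGAAGATTCctggccccaaggcc
Dnaja1 (chr4:40722336-40722365, plus strand): agcctctaGAAAATTCtacgaggctcggga
Fkbp4 (chr6:128438786-128438815, minus strand): cttctctaGAAAGTTCtccgctcccgcccc
Cct2 (chr10:117063396-117063425, minus strand): caagtgaaGAAGTTTCtagcaggacctgct
Stub1 (chr17:25833021-25833050, minus strand): gcgcggcgGAAGCTTCtcagagctaaggga
The *Hspa1a* and *Hspa1b* stretches were the same, and in both the match began 104 bases before the start site. In *Hsph1* the match lay inside the transcript, 15 or 36 bases after the 2 start sites RefSeq gives. No window of *Dnajb1*, *Vbp1* or *Dnajc7* held any of the 3 forms.

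The presence of a match was set beside the calls of the test described next, in which 24.1% of all tested genes were higher in cKO and 24.5% were lower. Of the 9 genes with GAANNTTC, 7 were higher, none was lower and 2 (*Cct2* and *Dnajb6*) were not called, and of the 23 genes with a window and no such match, 16 were higher, 3 were lower and 4 were not called. The median log2 fold change was 0.62 with this match and 0.43 without it. The other forms had the opposite order. With the 3-unit form, *Hsph1* and *Chordc1* were higher and *Dnajb6* was not called, with a median of 0.22 against 0.44 for the 29 genes without it. With TTCNNGAA, 4 of 6 genes were higher, with a median of 0.28, and without it 19 of 26 were higher, with a median of 0.45. No test was made of these differences, and most of the genes were higher in cKO with or without a match.

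Expression was compared as CPM, counts scaled to the size of each library, after TMM normalization, and each gene was tested in edgeR's quasi-likelihood fit over all 13296 genes that passed the filter, with Benjamini-Hochberg adjustment over all of them. A gene was called at an adjusted p under 0.05, and a second, stricter call also needed a fold change over 1.5. The libraries held 39079582 to 45504570 estimated counts, and the median log2 fold change of all tested genes was close to 0 (−0.004). *Eif3e* itself was lower in every cKO library, at 173.4, 149.8 and 151.7 CPM against 424.3, 400.7 and 392.4 CPM in control, with a log2 fold change of −1.36 (SE 0.0657, adjusted p = 6.71e-07 from edgeR). A gene-level count does not separate deleted from retained exons or undeleted cells. B cell markers summed to 4460 to 4620 CPM in cKO and 4330 to 4690 CPM in control, and the T cell markers reached at most 0.355 CPM, with *Cd3e* at 0 in every library. Among markers of germinal center B cells, *Bcl6* and *Mef2b* were lower in cKO (log2 fold change −0.32 and −1.67), *Fas* was higher (0.41) and *S1pr2* was not called (−0.27, adjusted p = 0.16). Fibroblast markers, which feeder cells express, summed to 111 to 137 CPM in cKO and 82.9 to 154 CPM in control. Of those 12 genes, 3 were higher, 2 were lower and *Postn* was at 0 in every library. Of 5 myeloid markers, *Adgre1* was higher in cKO, at 4.615 against 1.184 CPM, and *Cd14* was at 0 throughout. The sum of the 5 was 4.08 to 6.06 CPM in cKO against 1.22 to 2.45 CPM in control. Of 5 plasma cell markers, *Jchain*, *Prdm1* and *Xbp1* were lower in cKO (log2 fold change −4.00, −1.13 and −1.10), and *Sdc1* and *Irf4* were higher (1.60 and 0.42). Their sum, most of which was *Irf4*, was 646 to 788 against 831 to 852 CPM. The part of these marker differences in the chaperone results was not tested, and in bulk RNA fewer cells of a type cannot be told apart from less RNA per cell.

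Most of the 40 genes were higher in cKO iGCBs. At an adjusted p under 0.05, 28 were higher, 5 were lower and 7 were not called by edgeR, while 24.1% of all tested genes were higher and 24.5% were lower. Past 1.5-fold as well, 13 of the 40 were higher and none was lower, against 10.4% and 10.6% of all tested genes. Without cKO 3 or without control 3, 3 genes instead of 5 were called lower. The median log2 fold change of the 40 was 0.41, with a range from −0.34 to 1.27. Together the 40 genes made up 1.52%, 1.511% and 1.391% of all counts in cKO, against 1.327%, 1.265% and 1.336% in control. There was no overlap between the groups for 33 of the genes, 28 higher and 5 lower, where 29.2% and 29.5% of all tested genes showed no overlap in those directions. Every class of the list had members that rose, and prefoldin, HSP90 and the J proteins also had members that fell.

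**Figure D1:**
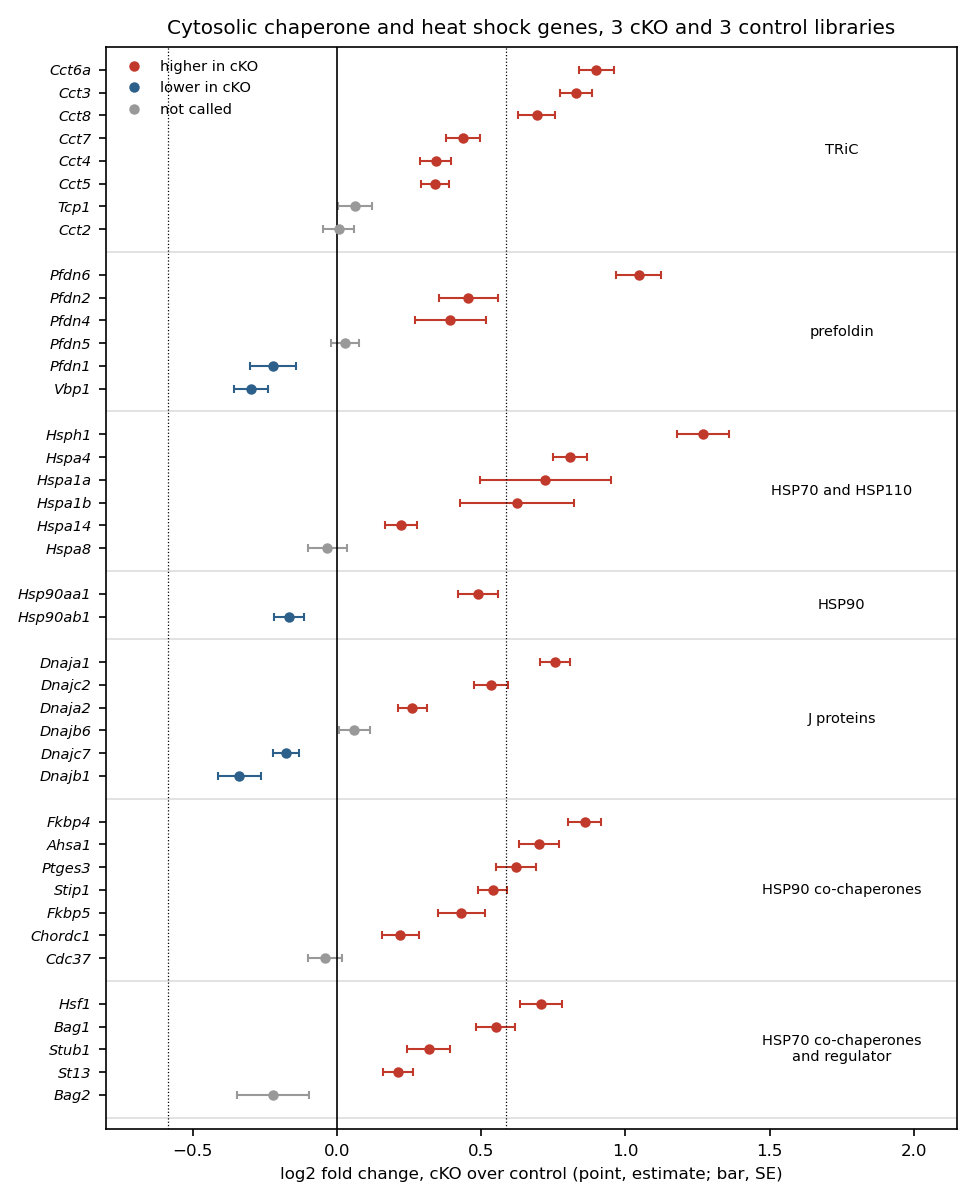
Log2 fold change of each of the 40 genes, cKO over control, with its standard error, grouped by role; dotted lines mark a 1.5-fold change and colors give the call of edgeR at an adjusted p under 0.05. Estimates run from −0.34 for *Dnajb1* to 1.27 for *Hsph1*, and 5 genes lie on the lower side as calls.

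TRiC, the chaperonin that folds actin and tubulin, is built from 8 different subunits, and its mRNAs did not move as one. *Cct3*, *Cct4*, *Cct5*, *Cct6a*, *Cct7* and *Cct8* rose, and *Tcp1* and *Cct2* were not called. The summed TRiC mRNAs were 4150 ± 223 CPM in cKO and 3226 ± 74.4 CPM in control (SD, n = 3 each).
*Cct6a*, on chromosome 5 (GRCm38, 129786998 to 129846371), had 354.1, 382.1 and 350.4 CPM in cKO and 193.6, 181.4 and 207.4 CPM in control. The lowest cKO library stood well above the highest control library. This was a log2 fold change of 0.90 (SE 0.0616, adjusted p = 3.15e-06), the largest of the complex. Of its exonic bases, 18.4% are shared with exons of *Psph* on the opposite strand, which fell in cKO with a log2 fold change of −0.69. Whether the libraries kept the strand is not given in the sources used here. Reads in such shared bases, here and in the 7 other genes with over 10% shared, cannot be assigned with certainty. In *Pfdn5*, one of those genes, the shared bases are on the same strand, so keeping the strand would not separate the reads. *Cct3* had 413.4, 446.5 and 403.8 CPM in cKO against 237.2, 229.2 and 244.9 CPM in control, a log2 fold change of 0.83 (SE 0.0548, adjusted p = 2.73e-06). *Cct8* rose from 309, 280.9 and 314.3 CPM in control to 476.4, 523.6 and 462.4 CPM in cKO, a log2 fold change of 0.69 (SE 0.0641, adjusted p = 1.67e-05). The groups were apart for both subunits. *Cct4*, *Cct5* and *Cct7* rose by 0.34, 0.34 and 0.44 on the log2 scale. *Cct2* had 611.7, 618.8 and 552.1 CPM in cKO and 602.6, 582.6 and 590.1 CPM in control, with groups that overlapped and a log2 fold change of 0.01 (SE 0.0534, adjusted p = 0.94). The estimate for *Tcp1* was 0.06 (SE 0.0598, adjusted p = 0.416), with 20% of its exonic bases shared with *Acat3* on the opposite strand (log2 fold change −0.43, not called).

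Per kilobase of transcript, the subunits with the lowest levels in control were among those that rose most. The control level also enters the fold change, so the 2 are not independent, and this order was not tested. A transcript length was matched for 7 of the 8 subunits, all but *Cct6a*. In control the levels ran from 302 ± 5.16 CPM per kilobase for *Cct2*, 292 ± 10.8 for *Tcp1* and 266 ± 3.51 for *Cct5* down to 163 ± 4.44 for *Cct4*, 130 ± 4.76 for *Cct7*, 126 ± 7.5 for *Cct8* and 120 ± 3.97 for *Cct3* (SD, n = 3). *Cct8* overlapped both *Cct7* and *Cct3*, while *Cct7* and *Cct3* did not overlap. In cKO the highest was *Cct5* at 337 ± 16.1 CPM per kilobase, and the others ran from 304 ± 24.2 for *Tcp1* to 176 ± 11.1 for *Cct7*. The ratio of the highest to the lowest of the 7 subunits was 1.98, 1.87 and 1.9 in cKO, against 2.56, 2.57 and 2.43 in control. The levels were thus more even in all 3 cKO libraries. This ratio was computed after the values had been seen, and 3 libraries against 3 cannot give an exact permutation p below 0.1, the value found here.

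**Figure D2:**
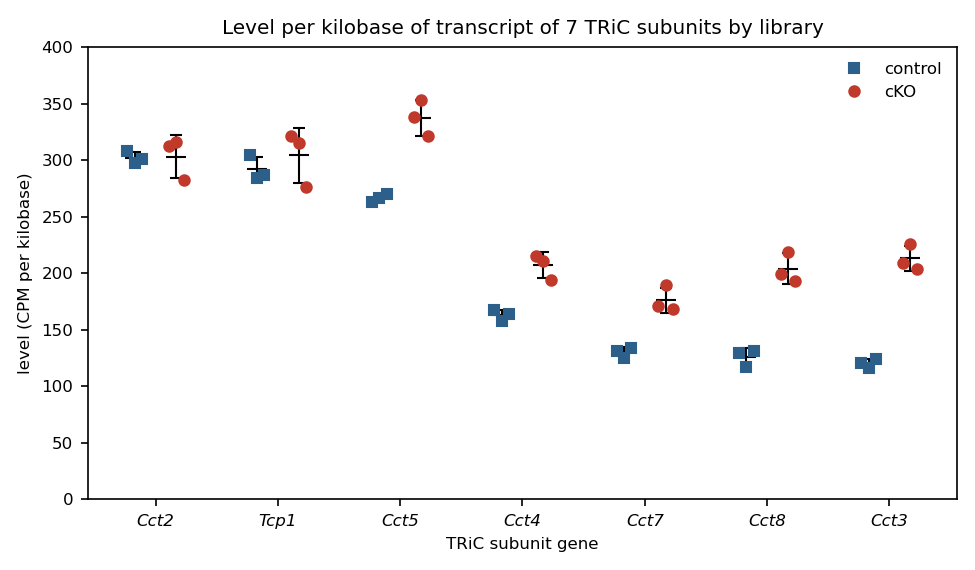
Level per kilobase of transcript of 7 TRiC subunit genes in each library (squares, control; circles, cKO; dash and bar, mean ± SD of 3 libraries), ordered by the control mean. *Cct2* and *Tcp1* lie between 276 and 321 CPM per kilobase in both groups while *Cct3* moves from 120 to 213.

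Prefoldin, the hexamer that delivers unfolded actin and tubulin to TRiC, had members that moved in both directions. *Pfdn6*, *Pfdn2* and *Pfdn4* rose, *Vbp1* and *Pfdn1* fell, and *Pfdn5* was not called.
*Pfdn6*, on chromosome 17 (GRCm38, 33938821 to 33940343), had 67.59, 69.01 and 72.84 CPM in cKO and 36.65, 31.12 and 33.64 CPM in control. Its groups were far apart, with a log2 fold change of 1.05 (SE 0.0777, adjusted p = 4.67e-06), the second largest among the 40 genes. *Vbp1*, which encodes prefoldin subunit 3, fell from 87.22, 82.05 and 83.52 CPM in control to 65.12, 68.21 and 72.35 CPM in cKO (log2 fold change −0.30, SE 0.0586, adjusted p = 0.00191). *Pfdn2* rose by 0.46 (SE 0.101, adjusted p = 0.00376). Of its exonic bases, 30.8% are shared with *Klhdc9* on the opposite strand, at 1.855 CPM in cKO against 1.479 CPM in control. *Pfdn5*, the most abundant subunit per kilobase at 119 ± 1.91 in cKO and 116 ± 2.74 in control, had a log2 fold change of 0.03 (SE 0.0492, adjusted p = 0.666). It shares 11.9% of its exonic bases with *Myg1* on the same strand (log2 fold change 0.05, not called). The highest subunit exceeded the lowest by a ratio of 7.77, 7.03 and 6.58 in cKO and 9.12, 9.3 and 10.3 in control, a ratio also chosen after the values were seen (exact permutation p = 0.1, the smallest possible).
The calls of *Pfdn1* and *Pfdn4* depended on the libraries used. *Pfdn1* had a log2 fold change of −0.22 (SE 0.0785, adjusted p = 0.0393) and was no longer called with DESeq2 (adjusted p = 0.0602), with the replicate number as a block (0.0664), with the *Xist* level as a covariate (0.0584) or without cKO 1 (adjusted p = 0.0915), cKO 2 (0.0584), cKO 3 (0.13), control 2 (0.061) or control 3 (0.115). *Pfdn4* had 0.39 (SE 0.122, adjusted p = 0.022), and its adjusted p was 0.0902 without cKO 2, 0.0769 without control 1 and 0.0645 without control 2. *Pfdn4* shares 23.7% of its exonic bases with *Gm16796* on the opposite strand, at 0.8607 CPM in cKO against 0.7511 CPM in control.

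Among HSP70 and HSP110 genes, 5 of 6 rose and *Hspa8*, the main constitutive HSP70, was not called, beside 24.1% of all tested genes higher and 24.5% lower. The largest change among all 40 genes was that of *Hsph1*, which encodes an HSP110 protein that exchanges nucleotide on HSP70.
*Hsph1*, on chromosome 5 (GRCm38, 149614287 to 149636376), had 120.2, 146.3 and 116.4 CPM in cKO and 51.45, 50.17 and 57.14 CPM in control. Every cKO library lay above the highest control library by a wide gap, and the log2 fold change was 1.27 (SE 0.091, adjusted p = 3.98e-06). *Hspa4*, the other HSP110 gene of the list, had 600.1, 635.9 and 605.2 CPM in cKO against 349.7, 328.4 and 373.5 CPM in control. Its log2 fold change was 0.81 (SE 0.0574, adjusted p = 3.83e-06), also without overlap. *Hspa14*, whose product works at the ribosome together with that of *Dnajc2*, rose by 0.22 (SE 0.0566, adjusted p = 0.00827).
*Hspa8*, at 871 ± 91 CPM per kilobase in cKO and 891 ± 34.6 in control, was second to *Hsp90ab1* per kilobase among the genes with a matched length. It had 2257, 2159 and 1840 CPM in cKO and 2189, 2039 and 2174 CPM in control. The cKO libraries spanned the control libraries on both sides, and the log2 fold change was −0.03 (SE 0.0673, adjusted p = 0.717). *Hspa4* and *Hsph1* summed were 0.319, 0.362 and 0.392 of *Hspa8* in cKO and 0.183, 0.186 and 0.198 in control, computed on CPM after the values were seen (exact permutation p = 0.1, the smallest possible).

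*Hspa1a* and *Hspa1b* encode the stress-inducible HSP70 and had the lowest levels per kilobase among the genes with a matched length, at 1.76 ± 0.441 and 2.14 ± 0.435 CPM per kilobase in cKO and 1.07 ± 0.141 and 1.39 ± 0.197 in control (SD, n = 3). They lie side by side on chromosome 17 (GRCm38, 34969190 to 34972156 and 34956436 to 34959238), and their annotated transcripts are 99.228% identical over 74.2% of the length of *Hspa1a*, so reads can be split between them. *Hspa1a* had 6.126, 5.823 and 3.725 CPM in cKO and 3.014, 2.85 and 3.643 CPM in control. The groups were separated only narrowly, since cKO 3 lay just above control 3, and the log2 fold change was 0.72 (SE 0.227, adjusted p = 0.0235). *Hspa1b* had 7.405, 5.49 and 5.139 CPM in cKO and 3.346, 4.452 and 3.91 CPM in control, a log2 fold change of 0.62 (SE 0.198, adjusted p = 0.0244). With both summed as 1 gene, the levels were 13.53, 11.31 and 8.864 CPM in cKO against 6.359, 7.302 and 7.553 CPM in control, and the log2 fold change was 0.67 (SE 0.167, adjusted p = 0.00735). Taken singly, *Hspa1a* lost its call without cKO 1 (adjusted p = 0.0935), cKO 2 (0.0876), control 1 (0.0725) or control 2 (0.0763), and *Hspa1b* without cKO 1 (0.109) or control 1 (0.0901) or with the *Xist* level as a covariate (0.0694). Without either cKO 1 or control 1 the class therefore had 3 genes called higher instead of 5.

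The HSP90 pair moved in opposite directions. *Hsp90aa1* encodes the stress-inducible form and *Hsp90ab1* the constitutive form.
*Hsp90aa1* had 894.8, 917.9 and 807.9 CPM in cKO and 659, 561.5 and 646.3 CPM in control, with no overlap and a log2 fold change of 0.49 (SE 0.07, adjusted p = 0.000261). *Hsp90ab1*, the most abundant per kilobase of the genes with a matched length, at 1510 ± 108 in cKO and 1690 ± 75.4 in control, had 4010, 3902 and 3493 CPM in cKO and 4339, 4051 and 4410 CPM in control. The lowest control library lay just above the highest cKO library, and the log2 fold change was −0.17 (SE 0.0522, adjusted p = 0.023). That call was lost without cKO 3 (adjusted p = 0.0709), control 1 (0.0791) or control 3 (0.0656). *Hsp90aa1* was 0.223, 0.235 and 0.231 of *Hsp90ab1* in cKO and 0.152, 0.139 and 0.147 in control, on CPM. This ratio was also chosen after the values were seen (exact permutation p = 0.1, the smallest possible). The sum of both was 4675 ± 327 CPM in cKO and 4889 ± 241 CPM in control (SD, n = 3 each), which overlapped.

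**Figure D3:**
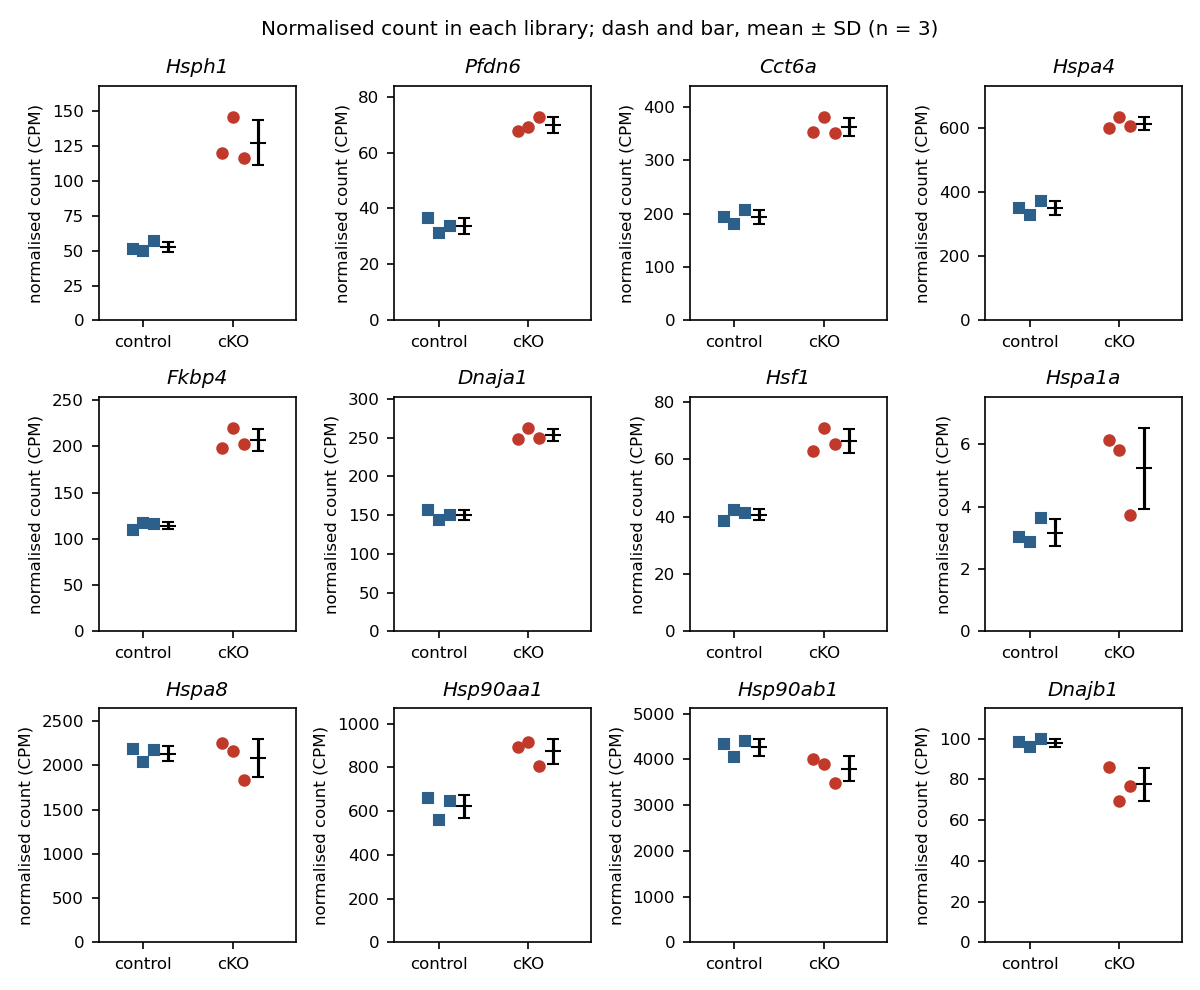
Normalised count in CPM of 12 genes in each library (squares, control; circles, cKO), with the mean ± SD of 3 libraries beside the points. *Hsph1*, *Pfdn6*, *Cct6a*, *Hspa4*, *Fkbp4*, *Dnaja1* and *Hsf1* show a wide gap between the groups, *Hspa8* overlaps, and *Hsp90ab1* and *Dnajb1* lie lower in cKO.

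J proteins start the ATP hydrolysis of HSP70 and bring it clients. *Dnaja1*, *Dnajc2* and *Dnaja2* rose, *Dnajb1* and *Dnajc7* fell, and *Dnajb6*, known for holding back protein aggregation, was not called.
*Dnaja1* had 248.6, 262.8 and 248.9 CPM in cKO and 156, 143.9 and 150.4 CPM in control, a log2 fold change of 0.76 (SE 0.0513, adjusted p = 3.04e-06) with groups far apart. Exons of *Smu1* on the opposite strand, which was not called (log2 fold change 0.07), share 10.5% of its exonic bases. *Dnajb1*, the partner of inducible HSP70 and a classical heat shock gene, had 86.19, 69.61 and 76.81 CPM in cKO and 98.36, 95.92 and 99.89 CPM in control. All 3 cKO libraries lay below all 3 control libraries, and the log2 fold change was −0.34 (SE 0.075, adjusted p = 0.00385), the largest decrease among the 40 genes. *Dnaja1* was 2.88, 3.78 and 3.24 times *Dnajb1* in cKO and 1.59, 1.5 and 1.51 times in control on CPM, a ratio chosen after the values were seen (exact permutation p = 0.1, the smallest possible). *Dnajc7*, which binds both HSP70 and HSP90, had a narrow spread of 163.4 to 164.1 CPM in cKO and 182.3 to 186.8 CPM in control, a log2 fold change of −0.18 (SE 0.045, adjusted p = 0.00859). Exons of *Nkiras2* on the opposite strand, which also fell (log2 fold change −0.38), cover 12.3% of its exonic bases. *Dnajb6* had 132.2, 127.5 and 123.7 CPM in cKO and 126.7, 118.1 and 122.7 CPM in control, which overlapped (log2 fold change 0.06, SE 0.0532, adjusted p = 0.379). *Dnajc2* rose by 0.53 (SE 0.0579, adjusted p = 4.41e-05) and *Dnaja2* by 0.26 (SE 0.0504, adjusted p = 0.00165).

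Of the 7 HSP90 co-chaperones, 6 rose and *Cdc37*, which brings kinases to HSP90, was not called, beside 24.1% of all tested genes higher and 24.5% lower. Their sum was 1115 ± 50.1 CPM in cKO and 812.8 ± 33.1 CPM in control (SD, n = 3 each).
*Fkbp4*, an immunophilin of steroid receptor complexes, had 198.3, 220.3 and 202.8 CPM in cKO and 110, 116.8 and 115.7 CPM in control, a log2 fold change of 0.86 (SE 0.0569, adjusted p = 2.74e-06). *Ahsa1*, the activator of the HSP90 ATPase, had 125.6, 144.8 and 125.5 CPM in cKO against 77.58, 81.59 and 84.25 CPM in control, a log2 fold change of 0.70 (SE 0.0687, adjusted p = 2.34e-05). *Ptges3*, the p23 protein that holds HSP90 in its closed state, had 140.2, 162.1 and 155.8 CPM in cKO and 102.7, 92.35 and 102.9 CPM in control (log2 fold change 0.62, SE 0.0693, adjusted p = 5.41e-05). No cKO library of these 3 genes reached down to the control range. *Stip1*, which passes clients from HSP70 to HSP90, rose by 0.54 (SE 0.0502, adjusted p = 1.73e-05), and *Fkbp5*, a second immunophilin, by 0.43 (SE 0.083, adjusted p = 0.00166). *Chordc1* had a smaller difference, 0.22 (SE 0.0653, adjusted p = 0.0177), and its adjusted p was 0.0572 without cKO 1, 0.0612 without cKO 2, 0.0976 without control 1, 0.0755 without control 2 and 0.054 with the *Xist* level as a covariate. *Cdc37* had a log2 fold change of −0.04 (SE 0.0585, adjusted p = 0.593).

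Among the HSP70 co-chaperones, *Bag1*, *Stub1* and *St13* rose, and *Bag2* did not pass the test. *Hsf1* rose with them.
*Hsf1*, on chromosome 15 (GRCm38, 76477422 to 76501913), had 62.94, 70.99 and 65.16 CPM in cKO and 38.44, 42.16 and 41.28 CPM in control. The cKO range lay wholly above the control range, with a log2 fold change of 0.71 (SE 0.0729, adjusted p = 3.27e-05). The mRNA level of *Hsf1* does not measure its activity, which depends on release from chaperones and on phosphorylation. *Bag1*, a nucleotide exchange factor, rose by 0.55 (SE 0.068, adjusted p = 1e-04). *Stub1*, the ubiquitin ligase CHIP, rose by 0.32 (SE 0.0746, adjusted p = 0.00523), with 35.4% of its exonic bases shared with *Jmjd8* on the opposite strand, which fell (log2 fold change −0.33). *St13*, which stabilises HSP70 bound to its client, rose by 0.21 (SE 0.0518, adjusted p = 0.00653). *Bag2*, an inhibitor of CHIP, had a log2 fold change of −0.22 (SE 0.124, adjusted p = 0.169) at 11.67 CPM in cKO against 13.61 CPM in control.

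Transcript counts were used to ask whether the differences came with another choice of transcript. Of 52 RefSeq transcripts of the 40 genes, 49 were tested, and 24 were higher and 3 were lower in cKO, against 12.4% and 12.7% of all 18040 transcripts tested. The 3 lower ones were the main transcripts of *Vbp1*, *Dnajb1* and *Dnajc7*. With the replicate number as a block 19 were higher and 0 were lower, and with DESeq2 31 were higher and 5 were lower. Without cKO 2 or without control 1, 1 transcript was lower. Only *Tcp1*, *Hspa14*, *Dnaja1*, *Dnajb1*, *Dnajb6* and *Bag1* had more than 1 tested transcript. In a test of transcript usage (edgeR's diffSpliceDGE), 0 of their 15 transcripts were called, while 0.606% of 7761 transcripts were called among all genes, and 1 had an unadjusted p under 0.05. That one was a long *Dnaja1* transcript (NM_001164671), with an unadjusted p of 0.0129 and an adjusted p of 0.537.
Of the 15 transcripts, the share of the gene's counts was higher in all 3 cKO libraries than in all 3 control libraries for 3 and lower for 5, against 8.08% and 8.07% of the 7761 transcripts. Within a gene a share that rises makes another fall.
The long *Dnaja1* transcript of 5622 bases made up 4.44%, 7.12% and 8.04% of the gene's counts in cKO and 0.781%, 2.88% and 3.07% in control. Its own count was higher in cKO, with a log2 fold change of 2.32 (SE 0.551, adjusted p = 0.0299), while the main transcript of the gene (NM_008298) rose by 0.69 (SE 0.0546, adjusted p = 0.00113). Another transcript of the same length (NM_001164672) made up 0.47%, 2.17% and 1.35% in cKO and 0.412%, 1.5% and 1.81% in control, which overlapped. A non-coding transcript of *Hspa14* (NR_103465) made up 20.6%, 21.8% and 26.8% in cKO and 18.1%, 19.7% and 19.7% in control, and its count rose by 0.48 (SE 0.101, adjusted p = 0.02). The coding transcript of *Hspa14* (NM_015765), which held the rest of the counts, was not called (log2 fold change 0.15, adjusted p = 0.21), and its groups overlapped. For *Dnajb1*, whose total fell, a minor transcript (NM_001308227) made up 1.66%, 1.69% and 1.57% in cKO and 0.451%, 0.902% and 0.535% in control, although its own count was not called (log2 fold change 1.05, adjusted p = 0.116). In *Dnajb6*, NM_001037941 had a lower share in cKO, at 2.45%, 2.32% and 2.46% against 2.83%, 4.09% and 3.72%. NM_011847, also of *Dnajb6*, made up 36.9%, 40.7% and 42.8% in cKO against 43.7%, 45.2% and 45.6% in control. The exact permutation p was 0.1 for each of the 8 transcripts whose shares did not overlap, the smallest that 3 against 3 allows, and none passed the usage test.

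**Figure D4:**
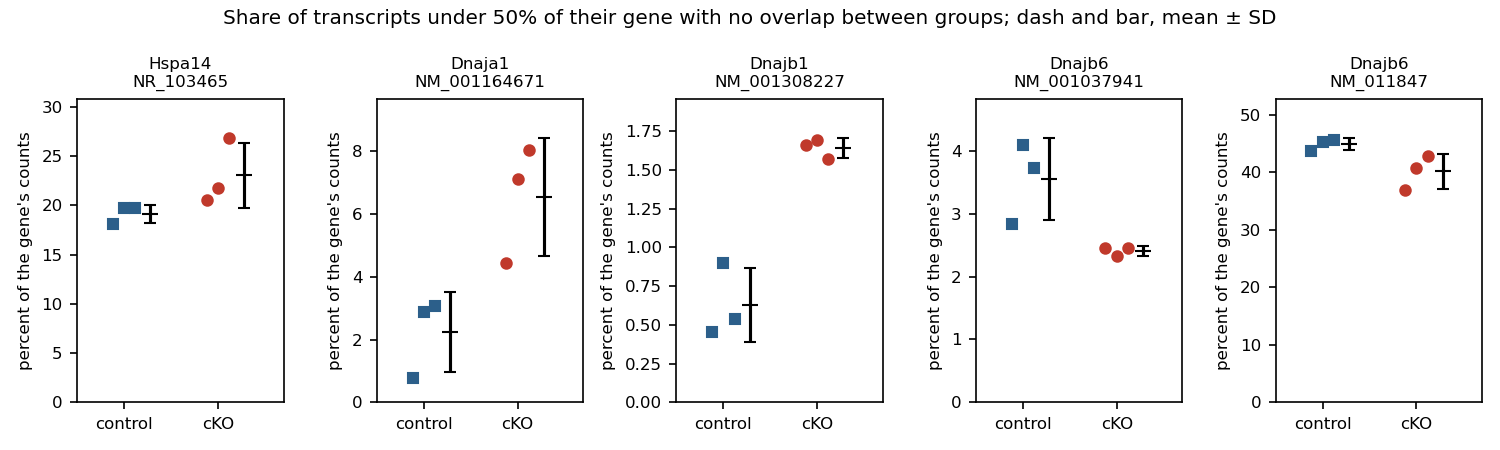
Share of the gene's counts in each library (squares, control; circles, cKO; dash and bar, mean ± SD of 3 libraries) for the 5 transcripts that made up under 50% of their gene and did not overlap between groups. The cKO points lie above the control points for *Dnaja1*, *Hspa14* and *Dnajb1* and below them for both *Dnajb6* transcripts.

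Other genes of the same system were measured beside the 40, and no test was made of the difference between the lists. Of 57 further cytosolic folding genes measured, 20 were higher, 9 were lower and 28 were not called, and their median log2 fold change was 0.04. Across all tested genes, 24.1% were higher and 24.5% were lower. Among 14 other HSP90 co-chaperones, 7 were higher and 2 were lower. *Nudcd2* rose by 0.88 and *Cacybp*, the calcyclin-binding protein, also by 0.88, while *Tomm34* and *Fkbp8* had log2 fold changes of −0.41 and −0.21. Among 20 other HSP70, J protein and exchange factor genes, 4 were higher and 3 were lower, both at shares below those of all tested genes. *Dnajc21* rose by 0.57 and *Hspbp1* by 0.25, while *Dnajb5* and *Hspa2* had −0.62 and −0.54. The other calls, named after their values were seen, were *Hspa4l* (1.07), another HSP110 gene at a low level of 11 CPM in cKO against 5.247 CPM in control, and *Dnajc13* (0.18) on the higher side and *Gak* (−0.15) on the lower side. *Bag3*, a nucleotide exchange factor induced by heat and also named afterwards, was not called (log2 fold change −0.20, adjusted p = 0.504).
Of 12 cofactors of TRiC and related complexes, 6 were higher and 2 were lower. *Ecd* rose by 0.79 and *Pdrg1* by 0.56, and *Pdcl* and *Pih1d1* had −0.52 and −0.33. Among 7 small heat shock proteins and other heat shock factors, *Hsf2* rose by 0.73, *Zfand2a* had −0.36, and *Hspb1*, named after its values were seen because its level was low, rose from 0.9147 ± 0.278 to 3.261 ± 0.307 CPM. Among 4 factors that meet the nascent chain at the ribosome, *Hypk* rose by 0.31, *Btf3l4* had −0.36, and *Naca* and *Btf3* were not called.

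A list of 18 classical *Hsf1* targets, which shares genes with the 40, held 13 that were higher, 3 that were lower and 2 that were not called, where 24.1% of all tested genes were higher and 24.5% were lower. Its median log2 fold change was 0.66. The 3 lower ones were *Dnajb1*, *Hsp90ab1* and *Zfand2a*, and the 2 without a call were *Hspa8* and *Bag3*. The list was written with results of these data known and is not independent evidence of a direction. Genes that respond to the handling of cells were measured beside it. Of 8 such early response genes, *Fos* (log2 fold change 2.01), *Jun* (1.17) and *Dusp1* (0.72) were higher in cKO, *Egr1* (−0.35) was lower and 4 were not called, beside the same 24.1% and 24.5% of all tested genes. *Dusp1* was named after its values were seen. The part of cell handling in the heat shock gene differences was not tested.

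**Figure D5:**
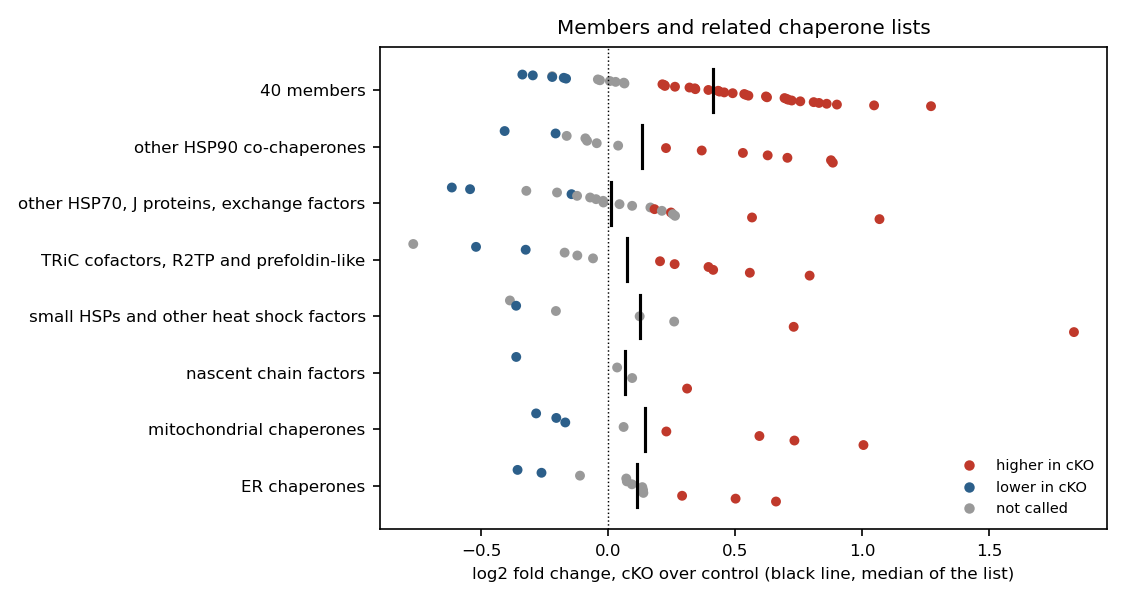
Log2 fold change, cKO over control, of the 40 genes and of 7 related lists, 1 point per gene, with the median of each list as a black line and the call of edgeR at an adjusted p under 0.05 by color. The median is 0.41 for the 40 genes and between 0.01 and 0.14 for the other lists.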

How the data were processed

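RNA-seq libraries of day 3 YFP+ iGCBs (3 cKO mice, 3 control mice) were analysed. Mice are separate replicates. The authors aligned reads with HISAT2 and quantified them with StringTie on mm10, and deposited estimated counts for genes and for RefSeq transcripts, written with StringTie's prepDE script and not normalized. These are whole numbers derived from coverage, so totals are not fragment numbers. Versions, annotation, read length setting and strandedness were not given in the sources used here. The titles and RNA-seq methods give 3 days of culture and the general protocol 4.

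Testing used edgeR 4.0.16 in R 4.3.3 (filterByExpr with a minimum count of 10, TMM with factors of 0.989 to 1.01, glmQLFit, glmQLFTest, no covariate, Benjamini-Hochberg over all genes tested). The SE was derived from the F statistic. Transcripts were matched to genes through RefSeq (35702 of 36026), and the transcripts of all 40 genes summed to their gene counts. Lengths and coordinates came from GENCODE M21 on GRCm38. Exact permutation tests were two-sided on log2 values. Close copies were searched for with blastn (at least 95% identity over 50% of the transcript). They were found for *Hspa1a* and *Hspa1b*, and as pseudogenes or a lincRNA outside the count table for *Hsp90aa1* and *Hspa8*. The fits were tested on simulated counts with changes put in. The gene fit recovered 78.6% of the changes it tested and called 14 unchanged genes. The transcript fit recovered 53.8% and called 3 unchanged transcripts, although larger changes were put in for transcripts. The usage test was simulated only at a fixed noise level, so its recovery in these libraries is not known.

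Alternatives were DESeq2 1.42.0, DESeq2 size factors, total counts only and other filters. Others were the replicate number as a block, the *Xist* level as a covariate, a test against 1.5-fold and each library left out in turn. *Xist* differed between libraries within both groups, at 0, 1184 and 0.2357 CPM in cKO and 1305, 1804 and 0.3886 CPM in control. Libraries with high *Xist* were thus not evenly spread over the groups. The list of 40 genes uses no measured value in its rule, but it, the related lists and the tests were chosen with earlier results of these data known. Named in full were genes past both cutoffs, the largest change of each class, and *Hspa1a*, *Hspa1b*, *Hsf1*, *Hspa8*, *Hsp90aa1* and *Hsp90ab1*. *Cct2*, *Vbp1*, *Dnajb1* and *Dnajb6* were added after their values were seen. From each related list up to 2 increases and 2 decreases with at least 10 CPM were named.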

Additional observations from a re-analysis of the deposited data

How the results depend on the processing

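Of the 40 genes, all kept their direction and side of the threshold with DESeq2 size factors, total counts only, no filter on low counts, or at least 10 counts in every sample. DESeq2 and the replicate block each lost 1 call, that of *Pfdn1* (adjusted p = 0.0602 and 0.0664), and the *Xist* covariate lost 3, those of *Pfdn1* (0.0584), *Hspa1b* (0.0694) and *Chordc1* (0.054). So prefoldin had 1 lower gene instead of 2 under each of these. The *Xist* covariate left 1 lower mitochondrial chaperone instead of 3. Of member transcripts, 3 were lower, against 5 with DESeq2 and 0 with the replicate block, and the replicate block changed no other call among the 40 genes. With it, 8 related cytosolic genes were lower against 9 without it, and 2 mitochondrial chaperones against 3. Correlations of deviations were 0.0085, 0.0839 and 0.1328 between same-numbered cKO and control libraries, and −0.1686 to 0.103 between the others. These values do not decide whether the replicate numbers pair the libraries. A test that the change exceeds 1.5-fold called 7 members higher and 0 lower, and 584 genes higher and 580 lower overall. The cause of these differences was not tested. With each library left out in turn, which leaves fewer samples, 214 of 240 gene values kept their call, 21 lost it and 5 changed sign, none of them called: *Cct2* (−0.0153 without cKO 1, −0.0234 without cKO 2, −0.0137 without control 2, range −0.0234 to 0.0563), *Hspa8* (0.0494 without cKO 3, range −0.0935 to 0.0494) and *Cdc37* (0.0133 without control 3, range −0.0798 to 0.0133). Lower members ranged from 3 to 4, higher HSP70 and HSP110 genes from 3 to 5, lower prefoldin genes from 1 to 2, lower HSP90 genes from 0 to 1, higher ER chaperones from 2 to 6, lower ER chaperones from 1 to 3, lower mitochondrial chaperones from 1 to 2, lower member transcripts from 1 to 3, and the median log2 fold change of the members from 0.35 to 0.43. The lowest count of lower members came without cKO 3 or control 3, and the lowest median without cKO 2. Members called higher ranged from 24 to 28, with the lowest count without control 1, and those also past 1.5-fold from 11 to 14. Only 3 mice per group limit the precision, and genes at a few CPM such as *Hspa1a* rest on few counts.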

Other observations

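Chaperones of other compartments were measured in the same libraries, beside 24.1% of all tested genes called higher and 24.5% called lower by edgeR. Of 8 mitochondrial chaperone genes, 4 were higher, 3 were lower and 1 was not called, with a median log2 fold change of 0.14. The chaperonin pair of the mitochondrial matrix moved most. *Hspd1*, which encodes HSP60, had 410 ± 55.4 CPM in cKO against 204.4 ± 13.4 CPM in control (SD, n = 3 per group). Its log2 fold change was 1.00 (SE 0.0916, adjusted p = 1.55e-05). Its partner *Hspe1*, which encodes HSP10, had 278 ± 11.6 CPM in cKO against 167.3 ± 4.41 CPM in control, a log2 fold change of 0.73 (SE 0.0502, adjusted p = 3.15e-06). *Hspa9* and *Trap1*, named after their values were seen, rose by 0.59 and 0.23. The lower genes were *Grpel2* (log2 fold change −0.28), *Grpel1* (−0.21) and *Timm44* (−0.17), the last also named after its values were seen. Of 12 ER chaperone genes, 3 were higher, 2 were lower and 7 were not called, with a median of 0.11. *Calr* and *Canx*, the lectin chaperones calreticulin and calnexin, rose by 0.66 and 0.50, and *Sdf2l1*, named after its values were seen, by 0.29. *Dnajb9* and *Pdia4* had −0.36 and −0.26. *Hspa5*, the main HSP70 of the ER, and *Hsp90b1*, its HSP90, did not pass the test, at 0.13 (adjusted p = 0.199) and 0.09 (adjusted p = 0.158), both named after their values were seen. Without control 3, 6 ER genes were called higher. Only 1 ER gene was called lower without cKO 2, control 1 or control 3, and only 1 mitochondrial gene without cKO 3, control 1 or control 2.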
